A study of Mus musculus with 12 samples.

Results

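The nuclear envelope divides into a membrane part and a soluble part, and 47 genes of it were followed here through mRNAs held by ribosomes at the endoplasmic reticulum (ER) and in the cytosol of mouse embryonic stem cells. The genes encode nuclear pore proteins, lamins, proteins of the nuclear membranes and factors of nuclear transport. They were chosen by name from 55416 gene identifiers and sorted by what is known of their proteins: 15 encode proteins that span the membrane, 1 encodes a protein of the ER lumen, and 31 encode proteins without a membrane span. All 47 passed the filter on low counts, which kept 16221 genes.

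The nuclear envelope is a fold of the ER, and its outer membrane is continuous with the ER membrane. Proteins that span the membrane are usually made by ribosomes docked on the ER, moved into the bilayer during translation, and then travel within the membrane to the pore or the inner nuclear membrane. Proteins whose only membrane span lies at the far carboxyl end, called tail-anchored, leave the ribosome before that span can be recognised and are inserted afterwards. Soluble nucleoporins, lamins, importins and exportins are made in the cytosol and enter the pore or the nucleus from there.

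All 12 libraries came from the same line, Rpl31-FTA E14Tg2a.4 mouse embryonic stem cells, whose ribosomes hold Rpl31 fused to FLAG, a TEV cleavage site and AviTag. Cells received plasmids for both fragments of ALIBi, a biotinylation system directed to a chosen compartment, so that tagged ribosomes near it could be purified. There were 3 libraries in each of 4 groups: RNA from ribosomes biotinylated at the ER (ER ribosome-bound), RNA from ribosomes biotinylated in the cytosol (cytosol ribosome-bound), and whole-cell RNA set aside from the lysates of ER-targeted cells (ER whole-cell) and of cytosol-targeted cells (cytosol whole-cell). The labels call the replicates biological without saying what was repeated, so p-values speak of the spread among these libraries alone. The purified ribosomes are those within reach of the enzyme, and an mRNA counted with them need not have been translated at that moment.

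Genes received 21.1 to 26.9 M reads per library. Principal component 1, with 68.2% of the variance, set the ER ribosome-bound libraries apart, and component 2, with 28.6%, set the cytosol ribosome-bound libraries apart from the whole-cell libraries. Rpl31 stood at 1053 to 1065 CPM (gene counts scaled to a common library size) in ER ribosome-bound, 947 to 984 CPM in cytosol ribosome-bound and 1091 to 1170 CPM in whole-cell libraries, which does not test the tag itself. All 12 embryonic stem cell markers were detected, with summed levels of 14440 to 15031 CPM in ER ribosome-bound, 11471 to 11677 CPM in cytosol ribosome-bound and 9492 to 9837 CPM in whole-cell libraries. Fibroblast markers, of which 4 of 8 passed the filter and none was at 0 in all libraries, summed to 75.5 to 80.4 CPM in ER ribosome-bound libraries, against 21 to 23.8 CPM in cytosol ribosome-bound libraries. They summed to 22.9 to 24.5 CPM in whole-cell libraries. Endoderm, mesoderm and neural markers summed there to 14.8 to 16.4, 16.1 to 18.8 and 23.7 to 25.9 CPM. In ER ribosome-bound libraries these lists summed to 19.8 to 25.4, 14.9 to 17 and 22.5 to 23.9 CPM. The part of other cell types in the results was not tested.

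To show hydrophobic segments at the level of the message, the stretch of coding sequence for such a segment of 19 residues is given for 10 members on which the results turn. Segments were found as windows with a mean Kyte-Doolittle hydropathy of at least 1.6 in the protein translated from the principal GENCODE M21 transcript (GRCm38). Each line reads 5′ to 3′ along the mRNA, and capitals mark codons with T as the second base, which encode hydrophobic residues (phenylalanine, leucine, isoleucine, methionine or valine).
Nup210, chromosome 6, codons 10 to 28 of 1886: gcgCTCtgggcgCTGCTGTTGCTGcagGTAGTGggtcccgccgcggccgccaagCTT
Ndc1, chromosome 4, codons 30 to 48 of 673: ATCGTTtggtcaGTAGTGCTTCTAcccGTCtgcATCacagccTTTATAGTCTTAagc
Pom121, chromosome 5, codons 39 to 57 of 1200: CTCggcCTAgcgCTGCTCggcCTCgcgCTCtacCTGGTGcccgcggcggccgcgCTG
Nrm, chromosome 17, codons 1 to 19 of 262: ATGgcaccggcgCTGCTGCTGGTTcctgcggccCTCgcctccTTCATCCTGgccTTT
Sun1, chromosome 5, codons 413 to 431 of 913: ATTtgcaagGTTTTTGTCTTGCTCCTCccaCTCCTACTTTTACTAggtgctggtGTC
Sun2, chromosome 15, codons 190 to 208 of 699: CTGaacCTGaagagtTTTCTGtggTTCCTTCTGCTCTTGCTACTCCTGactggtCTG
Lbr, chromosome 1, codons 226 to 244 of 626: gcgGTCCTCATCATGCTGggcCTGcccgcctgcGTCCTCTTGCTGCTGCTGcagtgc
Emd, chromosome X, codons 226 to 244 of 259: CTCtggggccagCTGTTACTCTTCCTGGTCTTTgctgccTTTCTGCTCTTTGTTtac
Syne2, chromosome 12, codons 6824 to 6842 of 6874: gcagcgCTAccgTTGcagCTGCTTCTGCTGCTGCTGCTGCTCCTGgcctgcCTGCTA
Nup155, chromosome 15, codons 165 to 183 of 1391: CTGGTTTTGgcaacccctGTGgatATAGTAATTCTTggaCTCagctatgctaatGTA

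In these stretches 8 to 13 of the 19 codons carried T in the second position, against 17.3% (Pom121) to 38.5% (Nrm) of all codons in the same coding sequences. The windows were chosen for hydropathy, so this excess follows from the choice and is no result. The first window is printed for each gene except Syne2, for which it is the last. The segment of Emd, its only window, is followed by 15 residues and that of Syne2 by 32, and Syne2 also holds a window at residues 123 to 141. Late segments are not limited to these genes, since the last windows of Nrm and Nup210 are followed by 38 and 59 residues. In Nup210, Ndc1, Pom121 and Nrm the first segment begins within the first 39 codons. Hydropathy alone does not show that a window is a membrane span. The window printed for Nup210 is the first of 3, and its last window ends at residue 1827 of 1886. The measure does not separate the classes on its own: 14 of the 15 membrane-spanning members hold a window in the principal transcript, and so do 9 of the 31 soluble members, among them Nup155.

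The first comparison set ER ribosome-bound against cytosol ribosome-bound RNA and asked which ribosomes held each message. Messages for membrane-spanning members were mostly on the ER side. Of the 15, 12 were higher in ER ribosome-bound RNA, 2 were lower and 1 was not called, with a median log2 ratio of 1.39. Messages for soluble members lay slightly on the cytosol side, with 4 of 31 higher, 19 lower and 8 not called, and a median log2 ratio of -0.15. The difference between these medians was 1.55 on the log2 scale. Its SD was 0.03 over the ER ribosome-bound libraries (n = 3), each against the mean of the cytosol ribosome-bound libraries. A call is an adjusted p below 0.05 in edgeR (quasi-likelihood test, Benjamini-Hochberg over all 16221 genes), of which 29.1% were called higher and 24.6% lower, with a median log2 ratio of 0.0. Among all tested genes 18.1% were called higher by more than 2-fold, and 11 of the 15 membrane-spanning and 1 of the 31 soluble members were in that set.

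The small negative values of the soluble members depend on how libraries are scaled. When libraries were scaled to 94 gene identifiers of cytosolic proteins (the cytosolic scaling), the median of all genes moved by 0.249 on the log2 scale. The count of members then became 30 higher and 5 lower, against 17 higher and 21 lower with the scaling over all genes. Of the soluble members 16 were higher and 5 lower under that scaling, and of the membrane-spanning members 13 were higher and 0 lower. Of all 16221 tested genes 8470 were then higher and 530 lower. Higher calls were thus about as common among the soluble members as among all genes, while lower calls were more common among the soluble members. The medians were then 1.64 for membrane-spanning and 0.1 for soluble members, against 0.251 over all genes. The soluble median thus stayed below that of all genes. Scaling moves the log2 ratios of all genes about alike, so the distance between the classes could not change. The sign of the soluble median did change. With the scaling over all genes the cytosolic reference genes themselves had a median log2 ratio of -0.23. The cytosolic scaling takes these genes as unchanged, so the change of sign follows from the choice of reference. The 5 members still lower were Rcc1, Lmnb2, Nup35, Nup85 and Lmnb1. The sign turned for 13 members, of which 12 were soluble. Members not called with the scaling over all genes but called higher with this one were Syne2 (0.39), Nup188 (0.32), Ranbp2 (0.29), Nup133 (0.28), Nup214 (0.28), Xpo1 (0.26), Tpr (0.23), Nup43 (0.16) and Nup93 (0.16). The calls of Nup50, Nup107, Seh1l and Kpnb1 turned from lower to higher.

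**Figure D1:**
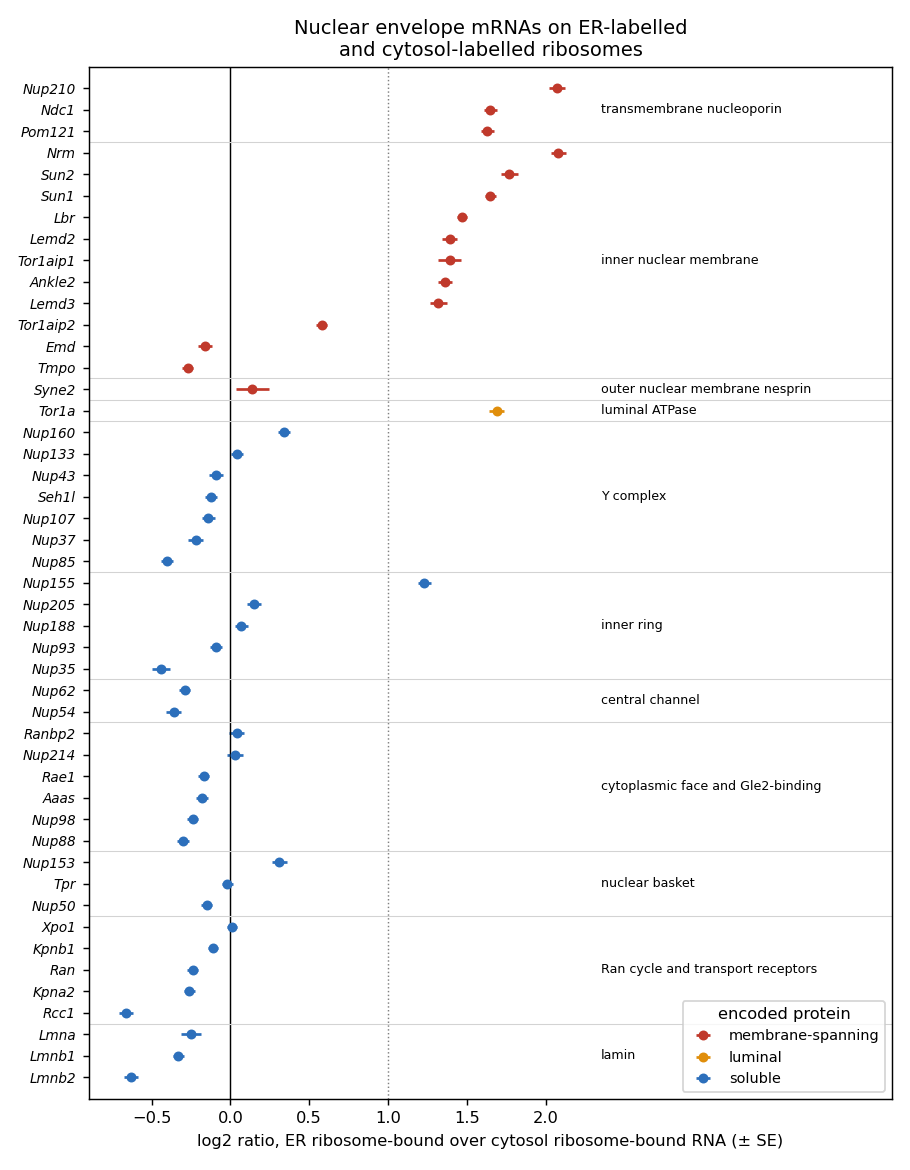
Log2 ratio of ER ribosome-bound over cytosol ribosome-bound RNA for each of the 47 members, with the standard error of the fit as a horizontal bar, grouped by place in the nuclear envelope and coloured by the kind of protein encoded. The dotted line marks a ratio of 2-fold. Membrane-spanning members run from -0.27 (Tmpo) to 2.08 (Nrm), and the only soluble member past the dotted line is Nup155 at 1.23.

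All 3 transmembrane nucleoporins were more than 3-fold higher on ER ribosomes. Nup210, a pore membrane protein with a large domain in the lumen, had 125, 128 and 130 CPM in the ER ribosome-bound libraries, against 33.1, 27.6 and 30.2 CPM in the cytosol ribosome-bound libraries. The groups did not overlap, and the log2 ratio was 2.07 (SE 0.051, adjusted p = 7.2e-29). How many of all tested genes lack such overlap was not counted, so here and below it only describes the libraries. Ndc1, a multi-pass protein that holds the pore scaffold to the membrane, had 199, 191 and 200 CPM on ER ribosomes, against 64.3, 61.6 and 62.2 CPM on cytosol ribosomes, a log2 ratio of 1.65 (SE 0.039, adjusted p = 1.9e-29). Pom121, which has its membrane span near the amino terminus and a long part facing the pore, had 147, 146 and 142 CPM on ER ribosomes, against 46.4, 46.2 and 48.2 CPM on cytosol ribosomes. Its log2 ratio was 1.63 (SE 0.041, adjusted p = 1.7e-28), and its only segment ends at codon 57 of 1200. Pom121 exons overlap those of Nsun5 on the opposite strand, and the strand setting of the counting is not given in the sources used here.

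Among the 11 members of the inner nuclear membrane class, 9 were higher on ER ribosomes and 2 were lower. Nrm, the multi-pass protein nurim, had the highest ratio of all members. It stood at 113, 108 and 112 CPM on ER ribosomes, against 28, 24.8 and 25.8 CPM on cytosol ribosomes, a log2 ratio of 2.08 (SE 0.049, adjusted p = 2.3e-29). Nrm and Nup210 did not differ from each other beyond their standard errors.

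Sun1 and Sun2, which cross the inner membrane and grip nesprins in the space between the membranes, had ratios close to each other at unlike levels. Sun1 had 458, 475 and 450 CPM on ER ribosomes, against 151, 140 and 152 CPM on cytosol ribosomes, a log2 ratio of 1.65 (SE 0.037, adjusted p = 6.9e-30). Sun2 had 61.7, 60.7 and 62.3 CPM on ER ribosomes, against 18.4, 17.1 and 18.8 CPM on cytosol ribosomes, a log2 ratio of 1.77 (SE 0.053, adjusted p = 2.7e-26). In neither gene did the groups overlap. Lbr, which binds B-type lamins and also has sterol reductase activity, had 382, 379 and 380 CPM on ER ribosomes, against 137, 135 and 141 CPM on cytosol ribosomes. Its log2 ratio was 1.47 (SE 0.034, adjusted p = 9.8e-30).

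The LEM-domain proteins, which bind the chromatin factor BAF, did not move together. Lemd2, Lemd3 and Ankle2 had log2 ratios of 1.39 (SE 0.047), 1.32 (SE 0.053) and 1.36 (SE 0.045), with adjusted p of 1.8e-24, 2.4e-22 and 6.8e-25. Lemd2 averaged 113.2 ± 1.71 CPM on ER ribosomes and 43.2 ± 1.24 CPM on cytosol ribosomes (SD, n = 3 each). Emd, the gene of emerin and of the same LEM family, lay on the other side of zero. It had 90.3, 85.1 and 89.5 CPM on ER ribosomes, against 103, 97.6 and 95.1 CPM on cytosol ribosomes, a log2 ratio of -0.16 (SE 0.043, adjusted p = 0.0017). Emerin is tail-anchored, and its segment printed above is followed by 15 residues. Emd shares exons with the pseudogene Gm14686 on the same strand, so its counts are uncertain. With the cytosolic scaling the value for Emd was 0.09, so its sign follows the scaling. Its distance from Lemd2 cannot, since scaling moves both genes alike.

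Tmpo, which encodes the lamina-associated polypeptides 2, had 248, 256 and 248 CPM on ER ribosomes, against 303, 307 and 301 CPM on cytosol ribosomes. The groups did not overlap, and the log2 ratio was -0.27 (SE 0.034, adjusted p = 8.2e-09), or -0.03 and not called with the cytosolic scaling. Its transcripts encode unlike proteins: 4 of 5 coding transcripts in the annotation hold a segment, which ends 22 residues before the end of the protein, and the longest form, the principal transcript of 693 residues, holds none. Gene counts do not tell these transcripts apart.

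Syne2, a giant nesprin that links the outer nuclear membrane to actin, is anchored at its far carboxyl end. It had 10.1, 8.74 and 9.02 CPM on ER ribosomes, against 8.72, 9.29 and 7.37 CPM on cytosol ribosomes, and the groups overlapped. The log2 ratio of 0.14 (SE 0.106, adjusted p = 0.29) was not called, and was 0.39 and called with the cytosolic scaling (adjusted p = 0.0025). Emd, Tmpo and Syne2 were the membrane-spanning members that were not higher on ER ribosomes, and in each the last segment is followed by 15 to 32 residues in the forms that hold it.

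The torsin system, an ATPase of the lumen with membrane-bound activators, was on the ER side but unevenly. Tor1a, the luminal ATPase, had 84.4, 85.8 and 84.1 CPM on ER ribosomes, against 26, 27 and 25.8 CPM on cytosol ribosomes, a log2 ratio of 1.69 (SE 0.047, adjusted p = 3.1e-27). Tor1aip1, its activator in the inner nuclear membrane, had 32.8, 31 and 28.8 CPM on ER ribosomes, against 11.1, 11.7 and 12.4 CPM on cytosol ribosomes, a log2 ratio of 1.39 (SE 0.072, adjusted p = 6.1e-19). Tor1aip2, the related activator found mainly in the ER membrane, had 249, 248 and 230 CPM on ER ribosomes, against 160, 160 and 165 CPM on cytosol ribosomes. Its log2 ratio of 0.58 (SE 0.036, adjusted p = 1.2e-16) was the lowest among the called-higher membrane-spanning members. Of 6 coding transcripts of Tor1aip2 in the annotation only 2 hold a segment, the shortest encodes 131 residues, and the gene overlaps Tor1aip1 on the opposite strand. The part of these forms in the lower ratio was not tested.

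**Figure D2:**
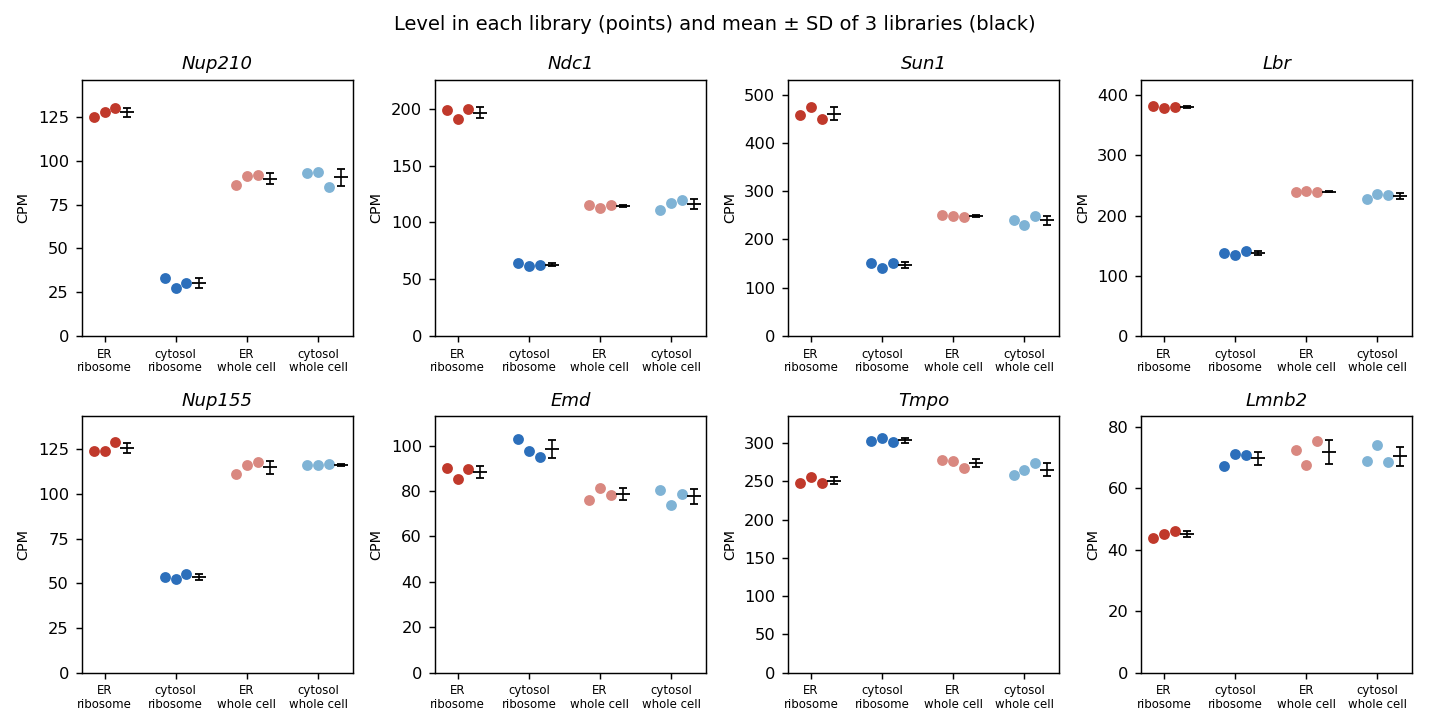
Level in CPM (vertical axis, from 0) of 8 members in each of the 12 libraries, with the mean and SD of 3 libraries in black beside each group of points. Nup210, Ndc1, Sun1, Lbr and Nup155 are highest in ER ribosome-bound and lowest in cytosol ribosome-bound libraries, with whole-cell libraries between them. Emd and Tmpo are highest in cytosol ribosome-bound libraries, and Lmnb2 is lowest in ER ribosome-bound libraries.

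Nup155 was the exception among the soluble members. Nup155 is a large subunit of the inner ring of the pore and has no membrane span. It had 124, 124 and 129 CPM on ER ribosomes, against 53.5, 52.2 and 55.4 CPM on cytosol ribosomes, a log2 ratio of 1.23 (SE 0.04, adjusted p = 3.6e-25). The groups did not overlap, and the ratio lay between that of Lemd3 and that of Tor1aip2. The other inner ring subunits were near or below zero: Nup205 at 0.15 (SE 0.043, adjusted p = 0.0023), Nup188 at 0.07 (SE 0.039, not called), Nup93 at -0.09 (SE 0.038, not called) and Nup35 at -0.44 (SE 0.057, adjusted p = 3.2e-08). The call for Nup205 was lost, with values from 0.06 to 0.11, when any ER ribosome-bound or cytosol whole-cell library, replicate 2 of cytosol ribosome-bound RNA or replicate 3 of ER whole-cell RNA was left out. Nup35 shares exons with Dusp19 on the same strand, so its counts are uncertain.

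In the Y complex, the outer ring scaffold, 1 of 7 members was higher on ER ribosomes and 4 were lower. Nup160 had 89.9, 90.7 and 84 CPM on ER ribosomes, against 67.8, 70.7 and 70.6 CPM on cytosol ribosomes, a log2 ratio of 0.34 (SE 0.041, adjusted p = 7.6e-09). At the other end of the complex Nup85 averaged 87.81 ± 1.88 CPM on ER ribosomes and 116.2 ± 2.68 CPM on cytosol ribosomes (SD, n = 3 each), a log2 ratio of -0.40 (SE 0.038, adjusted p = 1.9e-11). Subunits of the same complex were thus on both sides of zero. With the cytosolic scaling Nup160 was at 0.59 and Nup85 at -0.15, both called.

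Of the 3 nuclear basket members, Nup153, which recruits other basket proteins, was higher on ER ribosomes, with 82.2, 84.2 and 76.7 CPM there against 70.2, 65.9 and 60.6 CPM on cytosol ribosomes. Its log2 ratio was 0.31 (SE 0.048, adjusted p = 1e-06). Nup50, an importin-binding basket protein, was lower at -0.15 (SE 0.035, adjusted p = 0.00034), and Tpr, the filament protein of the basket, was not called at -0.02 (SE 0.036).

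Both central channel members, whose phenylalanine-glycine repeats form the permeability barrier, were lower on ER ribosomes. Nup54 had a log2 ratio of -0.36 (SE 0.047, adjusted p = 4.5e-08) and Nup62 a ratio of -0.29 (SE 0.035, adjusted p = 8.4e-09). Nup62 shares exons with Il4i1 on the same strand, so its counts are uncertain. On the cytoplasmic face, 4 of 6 members were lower and none was higher. There Nup88 was lowest at -0.30 (SE 0.037, adjusted p = 6.4e-09) and Ranbp2, a SUMO ligase of the cytoplasmic filaments, was highest at 0.04 (SE 0.049, not called). Ranbp2 has 12 annotated pseudogenes, so its reads may be shared.

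The lamins, filament proteins that line the inner membrane, were all lower on ER ribosomes. Lmnb2 had 44, 45.3 and 46 CPM on ER ribosomes, against 67.4, 71.3 and 70.9 CPM on cytosol ribosomes, a log2 ratio of -0.63 (SE 0.047, adjusted p = 3.8e-14). Lmnb1 had 263, 264 and 259 CPM on ER ribosomes, against 316, 336 and 337 CPM on cytosol ribosomes, a log2 ratio of -0.33 (SE 0.034, adjusted p = 1.2e-10). Lmna had 25.9, 29.6 and 32.2 CPM on ER ribosomes, against 36.2, 32.7 and 35.3 CPM on cytosol ribosomes, a log2 ratio of -0.25 (SE 0.064, adjusted p = 0.001). The groups came close in Lmna but did not overlap in any lamin, and with the cytosolic scaling the value for Lmna was 0.00.

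Of the 5 members of the Ran cycle and transport receptors, 4 were lower on ER ribosomes and none was higher. Rcc1, the chromatin-bound exchange factor for Ran, was the lowest of all 47 members. It had 111, 110 and 115 CPM on ER ribosomes, against 168, 189 and 174 CPM on cytosol ribosomes, a log2 ratio of -0.66 (SE 0.045, adjusted p = 2.9e-15). Rcc1 shares exons with the noncoding host gene Snhg3 on the same strand, so part of its counts may belong to that RNA. Xpo1, the main export receptor, was not called at 0.01 (SE 0.034), with 361, 361 and 362 CPM on ER ribosomes, against 365, 360 and 353 CPM on cytosol ribosomes.

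The next comparisons set each ribosome pool against the whole-cell RNA of the same targeting. In ER ribosome-bound against ER whole-cell RNA, 13 of 15 membrane-spanning members were higher and 2 lower, and 3 of 31 soluble members were higher, 24 lower and 4 not called. Of all tested genes 32.5% were called higher and 30.6% lower. The median log2 ratio was 0.68 for membrane-spanning members, -0.39 for soluble members and 0.01 over all genes. The difference between the classes was 1.07, with an SD of 0.0085 over the ER ribosome-bound libraries (n = 3), each against the ER whole-cell mean. The cytosolic scaling moved the median of all genes by 0.224 here and gave 23 members higher and 22 lower, against 17 higher and 26 lower with the scaling over all genes. With the cytosolic scaling 8075 of all tested genes were higher and 2459 lower. In cytosol ribosome-bound against cytosol whole-cell RNA, 3 of 15 membrane-spanning members were higher, 10 lower and 2 not called, and 7 of 31 soluble members were higher, 16 lower and 8 not called. Here 20.8% of all tested genes were called higher and 33% lower, and the medians were -0.51 for membrane-spanning and -0.15 for soluble members, against -0.05 over all genes.

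**Figure D3:**
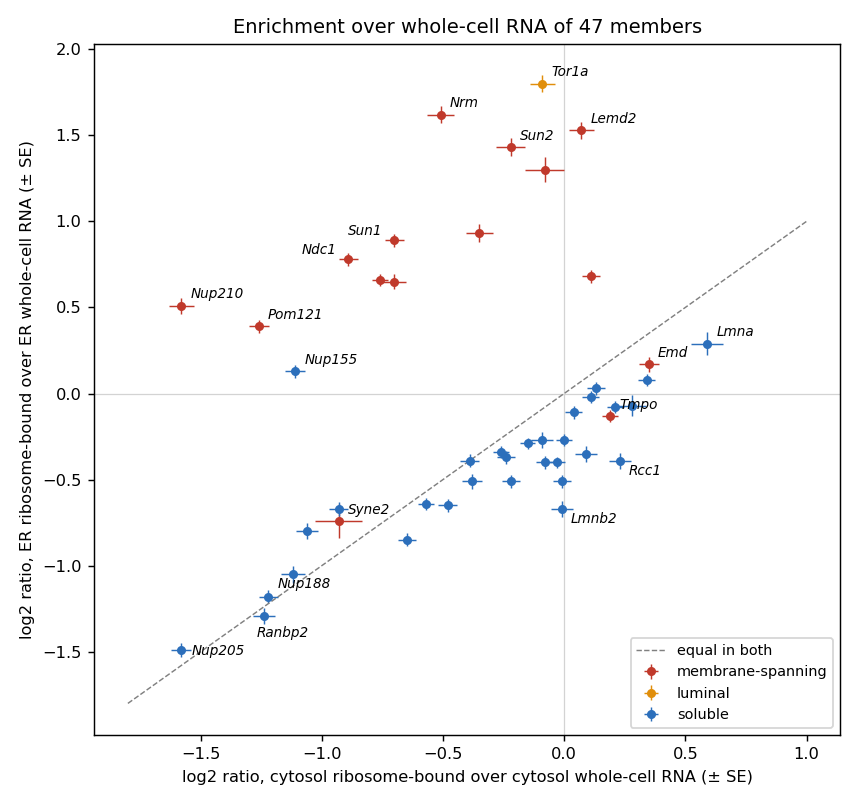
Each point is a member, placed by its log2 ratio of cytosol ribosome-bound over cytosol whole-cell RNA (horizontal axis) and of ER ribosome-bound over ER whole-cell RNA (vertical axis), with standard errors as bars. The dashed line marks equal ratios. Most membrane-spanning members lie above the line, with Nup155 among the soluble members also above it, while Emd, Tmpo and Syne2 lie near the line with the other soluble members.

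Members on the ER side differed in how much of the distance lay above whole-cell RNA and how much below it. The luminal Tor1a averaged 84.76 ± 0.919 CPM on ER ribosomes and 24.45 ± 0.932 CPM in ER whole-cell RNA (SD, n = 3 each), a log2 ratio of 1.8 (SE 0.048, adjusted p = 2.3e-27), while on the cytosol side its ratio to whole-cell RNA was -0.09 (SE 0.052, not called). Nrm, Lemd2, Sun2 and Tor1aip1 were likewise more than 2-fold higher on ER ribosomes than in whole-cell RNA, with log2 ratios of 1.62, 1.53, 1.43 and 1.30 (SE 0.048 to 0.073), a rise that 16.5% of all tested genes passed. On cytosol ribosomes against whole-cell RNA the values of these 4 genes were -0.51, 0.07, -0.22 and -0.08. The value of Lemd2 was not called, but was 0.17 (adjusted p = 0.0093) without cytosol whole-cell replicate 1. In Sun1, Lbr and Ankle2 both parts were called, with 0.89, 0.66 and 0.65 (SE 0.033 to 0.043) against ER whole-cell RNA and -0.7, -0.76 and -0.7 (SE 0.034 to 0.046) against cytosol whole-cell RNA. Lemd3 had 0.93 (SE 0.052) and -0.35 (SE 0.056).

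In Nup210 and Pom121 the part below cytosol whole-cell RNA was the larger. Nup210 averaged 127.6 ± 2.71 CPM on ER ribosomes and 89.73 ± 3.27 CPM in ER whole-cell RNA, a log2 ratio of 0.51 (SE 0.046, adjusted p = 4.4e-12). On the cytosol side it averaged 30.31 ± 2.75 CPM on ribosomes and 90.58 ± 4.7 CPM in whole-cell RNA, a log2 ratio of -1.58 (SE 0.052, adjusted p = 5.2e-24). Pom121 had log2 ratios of 0.39 (SE 0.038) against ER whole-cell RNA and -1.26 (SE 0.042) against cytosol whole-cell RNA, and Ndc1 had 0.78 (SE 0.037) and -0.89 (SE 0.04). These 3 pore membrane genes were called in all 4 of the ribosome comparisons given here, counting the difference of enrichments below.

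The same held for Nup155. It averaged 125.7 ± 2.77 CPM on ER ribosomes and 115.0 ± 3.55 CPM in ER whole-cell RNA, a log2 ratio of 0.13 (SE 0.038, adjusted p = 0.0033). On the cytosol side it averaged 53.69 ± 1.6 CPM on ribosomes and 116.2 ± 0.658 CPM in whole-cell RNA, a log2 ratio of -1.11 (SE 0.04, adjusted p = 6e-23). Its distance between the ribosome pools thus lay mainly on the cytosol side.

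Nup205, Ranbp2, Nup188 and Nup214 were lower on both ribosome pools than in whole-cell RNA. Nup205 averaged 85.17 ± 2.24 CPM on ER ribosomes and 238.8 ± 14.0 CPM in ER whole-cell RNA (SD, n = 3 each), a log2 ratio of -1.49 (SE 0.041, adjusted p = 3.8e-27). On the cytosol side Nup205 averaged 76.53 ± 2.86 CPM on ribosomes and 228.4 ± 1.77 CPM in whole-cell RNA, a log2 ratio of -1.58 (SE 0.041, adjusted p = 4.5e-27). Ranbp2, Nup188 and Nup214 had log2 ratios of -1.29, -1.18 and -1.05 (SE 0.039 to 0.05) on ER ribosomes. On cytosol ribosomes they had ratios of -1.24, -1.22 and -1.12 (SE 0.038 to 0.049). Nup188 shares exons with the protein-coding gene Gm28038 on the same strand, so its counts are uncertain. In the lists of all genes 1.92% were called lower by more than 2-fold on ER ribosomes and 3.66% on cytosol ribosomes, and 4 and 8 of the 47 members were so.

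Of the Y complex members, Seh1l averaged 166.1 ± 6.6 CPM on ER ribosomes and 299.8 ± 13.7 CPM in ER whole-cell RNA, a log2 ratio of -0.85 (SE 0.038, adjusted p = 6.9e-21). On cytosol ribosomes against whole-cell RNA Seh1l had a ratio of -0.65 (SE 0.037, adjusted p = 3.6e-17), and Nup107 had -0.65 (SE 0.04) on ER and -0.48 (SE 0.039) on cytosol ribosomes. Lmna ran the other way. It was higher on ribosomes of both pools, with log2 ratios of 0.29 (SE 0.068, adjusted p = 0.00037) on ER ribosomes and 0.59 (SE 0.065, adjusted p = 1.3e-09) on cytosol ribosomes.

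Longer soluble members had lower ratios to whole-cell RNA. Across the 31 soluble members Spearman's rho between coding length and the log2 ratio of cytosol ribosome-bound to cytosol whole-cell RNA was -0.71, and it was -0.39 across 14121 tested genes with a coding length. For ER ribosome-bound to ER whole-cell RNA the values were -0.54 and -0.29. The genes share the same libraries, so these are descriptions across genes. The 6 soluble members with over 5000 coding bases had median log2 ratios of -1.11 on ER and -1.17 on cytosol ribosomes, where the 598 tested genes of that length had -0.55 and -0.81. Between the ribosome pools rho was 0.64 across the soluble members and 0.05 across all genes, a description that did not run on to the longest members. The 5 soluble members of 3000 to 5000 coding bases, Nup155 and Nup160 among them, had a median of 0.31 between the pools, and the 13 of 1000 to 2000 bases had -0.26. The 6 soluble members of over 5000 bases had a median of 0.03, against 0.21 for all tested genes of that length.

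**Figure D4:**
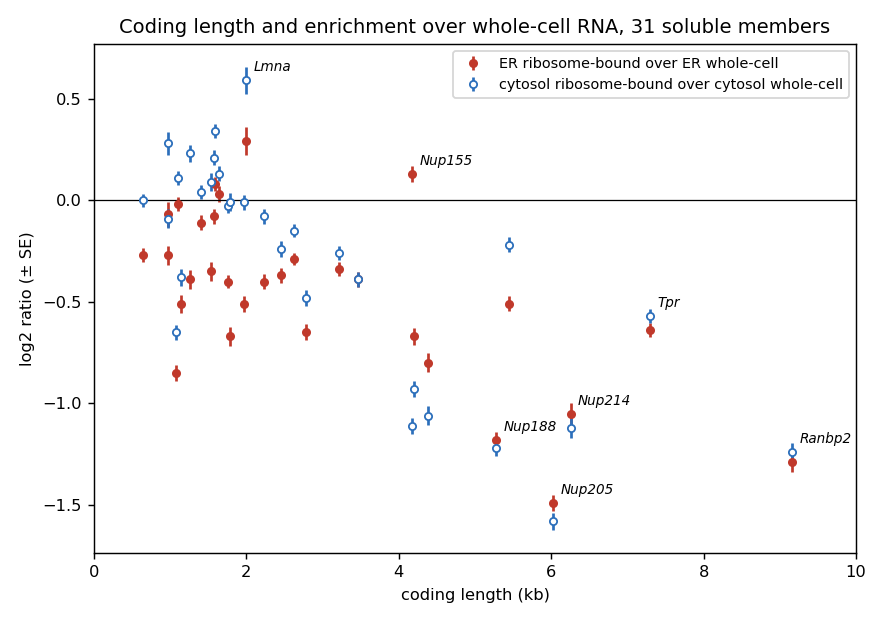
Coding length in kb (horizontal axis) and log2 ratio of ribosome-bound over whole-cell RNA (vertical axis, with standard errors) for the 31 soluble members, filled for ER and open for cytosol libraries. Most members over 4 kb lie below zero in both, with Nup155 at 0.13 in the ER libraries and -1.11 in the cytosol libraries.

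The difference of enrichments, ER ribosome-bound over ER whole-cell minus cytosol ribosome-bound over cytosol whole-cell, takes the level of each message in its own lysates into account. Here 12 of 15 membrane-spanning members were higher, 2 lower and 1 not called, and 3 of 31 soluble members were higher, 19 lower and 9 not called. Of all tested genes 24.8% were called higher and 18.6% lower. The medians were 1.42 for membrane-spanning and -0.15 for soluble members, a difference of 1.57. Its SD was 0.09, from the libraries of both ribosome pools (n = 3 each), each against the mean of its whole-cell libraries. With the cytosolic scaling 28 members were higher and 4 lower, against 16 higher and 21 lower with the scaling over all genes. Of all tested genes 6949 were higher and 270 lower with the cytosolic scaling. Nrm, Nup210 and Tor1a had the highest values at 2.12 (SE 0.072), 2.09 (SE 0.069) and 1.89 (SE 0.072), and Nup155 stood at 1.24 (SE 0.055, adjusted p = 9.5e-21). Nup205, called between the ribosome pools, was not called here at 0.09 (SE 0.057, adjusted p = 0.21), but was called at 0.36 (adjusted p = 2e-06) with the cytosolic scaling.

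Whole-cell RNA did not separate the targetings for these genes. In ER whole-cell against cytosol whole-cell RNA 0 of the 47 members and 0% of all tested genes were called by edgeR. An unadjusted p below 0.05 was found for 5 members and for 634 of all genes, and DESeq2 called 0 of either. The log2 ratios of the members ran from -0.2 (Tor1a, SE 0.054) to 0.12 (Sun2, SE 0.059).

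Levels per length in whole-cell RNA spanned the members widely. Over the 6 whole-cell libraries, as CPM per kb of exon, Ran, the GTPase of nuclear transport, stood highest with a mean of 375 and a range of 366 to 397. Kpnb1, the importin beta receptor, followed at 143 (139 to 148), then Kpna2, an importin alpha, at 117 (112 to 121) and Lmnb1 at 115 (111 to 118), whose ranges overlap. Among the membrane-spanning members Lbr was highest at 49.6 (47.7 to 50.7), ahead of Sun1 at 32.1 (30.3 to 32.9) and Emd at 31 (29.3 to 32.3), which overlapped. Lmna, at 4.04 (3.78 to 4.26), lay far below the B-type lamins and next to Sun2 at 4.05 (3.76 to 4.24). On ER ribosomes the order of the membrane members was different: Lbr had 79.8, Nrm 75.7 and Sun1 60.7 CPM per kb, while Emd had 35.1.

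Related genes outside the 47 were counted from lists of the same pathway. Of 23 tested genes of other nuclear envelope membrane proteins 19 were higher on ER ribosomes and 1 lower, with a median log2 ratio of 1.68. The highest were Dhcr7, a sterol reductase, at 2.26 and Tmem97 at 2.15. The lowest were Chmp7, an ESCRT adaptor of the nuclear envelope, at -0.33 (adjusted p = 1.3e-07) and the nesprin Syne3 at -0.21 (not called). Syne1, named after its value was seen, was at -0.07 (not called), so none of the nesprins Syne1, Syne2 and Syne3 was called between the pools.

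The luminal torsins Tor2a, Tor3a and Tor1b were all higher on ER ribosomes, at 1.96, 1.42 and 1.27. Of 14 other soluble nucleoporins and assembly factors 3 were higher and 8 lower, with a median of -0.12, from Sec13 at -0.44 and Ddx19a at -0.25 to Mcm3ap at 0.24 and Ahctf1 at 0.27. Of 29 other transport receptors and Ran regulators 1 was higher, Hikeshi at 0.16, and 20 were lower, with a median of -0.17. Ipo8 was next at 0.06 (not called), and Kpna6 at -0.45 and Rangap1 at -0.35 were lowest.

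The Sec61 translocon, the channel through which proteins enter the ER, and its partner TRAP were mostly on the ER side. Of 11 subunits 9 were higher on ER ribosomes, led by Ssr1 at 2.27 and Ssr2 at 2.12. The lowest were the small tail-anchored subunits Sec61g at 0.04 (not called) and Sec61b at -0.10 (adjusted p = 0.044). All counts in these lists use edgeR's calls, adjusted over all tested genes.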

How the data were processed

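The deposited values are raw read counts per Ensembl gene, 1 file per library, not normalized by the authors. Per the submitters' processing notes, STAR 2.7.9a, HTSeq 0.11.2, DESeq2 and GRCm39 were used. The sources used here do not name the annotation release, the strand setting or what was done with multimapped reads. Exons of 22 members overlap another gene, 8 of them on the same strand, and those counts are less certain. Per the labels' protocols, poly(A) libraries were made with a directional kit and 9 PCR cycles. Without molecular identifiers, reads are not independent molecules.

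Reads outside genes, 8.75% to 12.54% per library, were left out. Genes were named with GENCODE M21, which matched 52083 of 55416 identifiers. It is built on GRCm38, so no coordinates are given. Genes kept by edgeR's filterByExpr (16221) were scaled by TMM and tested with edgeR 4.0.16 (R 4.3.3), quasi-likelihood, all 12 libraries in 1 fit without covariates, 5 contrasts, Benjamini-Hochberg adjusted p below 0.05. The common biological coefficient of variation was 3.61%. CPM values are TMM-scaled. Each SE was taken as the size of the log2 ratio divided by the root of its F statistic. The SD of a difference of medians is over the libraries of the first-named group, each set against the mean of the other group. It leaves out the spread of the other group, so it is not the full error of the difference. For the difference of enrichments the variances of both pools were added. Replicate numbers do not pair libraries by any label. The script was tested on simulated data.

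Members, classes and lists were chosen with earlier results of these data known. Values are given for every membrane-spanning and luminal member, for the highest and lowest of each soluble class between the ribosome pools, for members over 1.5-fold in any comparison, and for the 2 highest and 2 lowest of each other list. A few further soluble members are named for comparison, chosen with their values seen. Alternatives were RLE size factors, cytosolic scaling, 18 mitochondrially encoded genes left out, no filter, DESeq2 1.42.0, a replicate block, only the 6 libraries compared, and each library left out.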

Additional observations from a re-analysis of the deposited data

Results flagged for a closer look

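Of the members named in the text, these were singled out because the enrichment over whole-cell RNA differed between ER and cytosol targeting by the test of the difference itself, an interaction contrast in edgeR with p adjusted over all tested genes. Values are log2, ER minus cytosol. Among the transmembrane nucleoporins the differences were 2.09 for Nup210, 1.67 for Ndc1 and 1.64 for Pom121. In the inner nuclear membrane class they were 2.12 for Nrm, 1.65 for Sun2, 1.59 for Sun1, 1.46 for Lemd2 and 1.42 for Lbr. Further members of that class had 1.38 (Tor1aip1), 1.34 (Ankle2), 1.27 (Lemd3) and 0.56 (Tor1aip2, found mainly in the ER membrane). In the lumen the difference was 1.89 for Tor1a. Emd and Tmpo had the opposite sign at -0.18 and -0.32. Soluble members with positive differences were Nup155 at 1.24, Nup153 at 0.27 and Nup160 at 0.26.

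Other soluble members that passed this test had negative differences. They were -0.34 for Nup35, -0.15 for Nup50, -0.44 for Nup54, -0.28 for Nup62, -0.49 for Nup85, -0.32 for Nup88, -0.17 for Nup107, -0.2 for Seh1l, -0.63 for Rcc1, -0.3 for Lmna and -0.66 for Lmnb2. A further 8 soluble members passed the same test, from -0.37 for Lmnb1 to -0.13 for Nup93 and Rae1. For Nup50, Nup107, Seh1l and Emd the sign turned with the cytosolic scaling, and Lmna, Nup35, Nup62, Nup88 and Tmpo were no longer called with it. Of the further 8, Nup93 (0.13), Rae1 (0.13) and Kpnb1 (0.12) were called higher with that scaling. Nup37, Nup98, Ran, Kpna2 and Lmnb1 were not called with it.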

How the results depend on the processing

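The separation of the classes kept its direction in the 4 comparisons with ribosome-bound RNA under every alternative run. Alternatives that only rescale the libraries move both medians alike and could not change it. The difference of medians between membrane-spanning and soluble members ranged from 1.54 to 1.6 between the ribosome pools and from 1.05 to 1.10 for ER ribosome-bound against ER whole-cell RNA with 1 library left out. Without Emd, Tmpo and Syne2 a larger difference follows from the choice of the genes left out and supports nothing. It was then 1.70 between the pools, 1.23 for ER ribosomes against whole-cell RNA, -0.46 for cytosol ribosomes against whole-cell RNA and 1.68 for the difference of enrichments. Among the counts of members, those that moved by over 1.5 times did so with the cytosolic scaling. It gave 30 members higher and 5 lower between the pools, where 8470 of all genes were higher and 530 lower. It gave 28 members higher and 4 lower for the difference of enrichments, where 6949 genes were higher and 270 lower, and 8075 genes higher and 2459 lower for ER ribosome-bound against ER whole-cell RNA. In ER whole-cell against cytosol whole-cell RNA 7 genes were lower without the filter, and 0 to 2 with 1 library left out (2 without cytosol whole-cell replicate 3).

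Signs turned with the cytosolic scaling for 13 members between the pools, 5 on ER ribosomes against whole-cell RNA and 13 in the difference of enrichments. Of the members named by rule, they turned between the pools for Emd (0.09), Nup107 (0.11), Nup50 (0.10), Seh1l (0.13) and Tpr (0.23). They turned for ER ribosomes against whole-cell RNA for Nup35 (0.16), Nup50 (0.11), Nup62 (0.15) and Tmpo (0.10). For the difference of enrichments they turned for Emd (0.09), Nup107 (0.10), Nup50 (0.11), Ranbp2 (0.22), Seh1l (0.07), Tpr (0.20) and Xpo1 (0.19). Members near zero and not called in the result as reported also changed sign under other settings. Of these, Nup188, Nup214, Ranbp2 and Xpo1 were called higher between the pools with the cytosolic scaling (0.32, 0.28, 0.29 and 0.26). In the difference of enrichments they were also called higher with it (0.31, 0.33, 0.22 and 0.19). Yet Xpo1 was called lower there without mitochondrially encoded genes (-0.12), without the filter (-0.13) and with DESeq2 (-0.11). It was also called lower there in some fits with 1 library left out (-0.12 to -0.14). Tpr was called lower there without replicate 2 of cytosol ribosome-bound (-0.13), cytosol whole-cell (-0.14) or ER ribosome-bound RNA (-0.14). Between the pools Nup214 was -0.01 with RLE size factors and with DESeq2, -0.03 without mitochondrially encoded genes and -0.04 without the filter. Xpo1 was -0.03, -0.03, -0.05 and -0.06 in the same order, and Ranbp2 was -0.02 without mitochondrially encoded genes and -0.03 without the filter. In cytosol ribosome-bound against cytosol whole-cell RNA, Lmnb2 was 0.03 with RLE and DESeq2, 0.05 without mitochondrially encoded genes and 0.04 without the filter or with only the 6 libraries compared, and Nup85 was 0.03, 0.04 and 0.04. Nup188 in the difference of enrichments was -0.01 without mitochondrially encoded genes and -0.02 without the filter. With 1 library left out the ranges between the pools were -0.04 to 0.09 for Nup188, -0.08 to 0.04 for Nup214, -0.05 to 0.07 for Ranbp2 and -0.06 to 0.02 for Xpo1. In cytosol ribosomes against whole-cell RNA they were -0.02 to 0.07 for Lmnb2, -0.03 to 0.05 for Nup85 and -0.12 to 0.02 for Tor1aip1, and in the difference of enrichments -0.06 to 0.06 for Nup188 and -0.03 to 0.08 for Nup214. The cause was not tested.

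Same-numbered libraries of the same targeting had deviations that correlated at 0.096, 0.1 and 0.056 (cytosol) and -0.007, 0.259 and 0.263 (ER). ER ribosome-bound replicate 2 against ER whole-cell replicate 3 had -0.259, and ribosome-bound replicate 3 against whole-cell replicate 2 had -0.265. Pairing in the ER groups is thus not excluded. No label pairs the libraries, so replicate numbers were not taken as pairs in the main fit, and blocked fits are given as alternatives. With the replicate block 17 members were higher and 22 lower between the pools. With the block within targeting 17 were higher and 27 lower on ER ribosomes against whole-cell RNA (Nup62 was then called at -0.08), and 10 were higher and 27 lower on cytosol ribosomes (Nup88 was then called at -0.08). Of the calls that rest on 1 library, Emd in the difference of enrichments was lost without cytosol ribosome-bound replicate 1 (-0.15), Nup107 there without cytosol ribosome-bound replicate 3 (-0.15), Sun2 on cytosol ribosomes against whole-cell RNA without cytosol ribosome-bound replicate 2 (-0.13) or cytosol whole-cell replicate 2 (-0.15), and Tor1aip2 there without cytosol ribosome-bound replicate 3 (0.10). Ratios between the pools below 0.249 on the log2 scale are smaller than the shift that the cytosolic scaling brings, and Syne2, at 7.37 to 18.4 CPM, had the largest standard errors.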
